A study of Mus musculus with 12 samples.

Results

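The 10 genes described here encode the energy-sensing kinase AMPK, its upstream kinase, a pair of NAD-dependent deacylases and the factors that drive mitochondrial biogenesis. They are *Prkaa1*, *Prkab1*, *Prkab2*, *Prkag1*, *Stk11*, *Sirt1*, *Sirt3*, *Tfam*, *Nrf1* and *Esrra*. They were listed by symbol for what they encode, from among the 10697 genes measured, with earlier results of these data known. That all 10 were measured thus follows from the choice. The comparison asked whether thymol, a phenolic monoterpene of thyme and oregano, altered the transcripts of these genes.

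By their labels the cells were primary mouse adult fibroblasts (MAFs). They grew out of tissue biopsies of wild-type C57BL6/j mice and were kept in high-glucose medium with 20% fetal bovine serum. Thymol-treated cells received 100 µM thymol in DMSO for 24 h, and controls received the same volume of DMSO. Each group held 6 QuantSeq libraries. In QuantSeq a transcript is sequenced from its 3′ end and gives about 1 read whatever its length, so levels can be compared between genes. The labels do not say whether the libraries of a group came from separate cultures, so p-values measure only the spread between these samples, which may be technical.

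AMPK is a trimer of a catalytic α, a scaffolding β and a nucleotide-binding γ subunit, and it is switched on by phosphorylation when AMP rises relative to ATP. Sirtuins use NAD as a substrate and so read the redox state of the cell, SIRT1 mainly in the nucleus and SIRT3 in mitochondria. NRF1 and ERRα, with the coactivator PGC-1α, switch on nuclear genes of mitochondria, and TFAM packages and transcribes mitochondrial DNA. AMPK and sirtuins act largely by modifying proteins, which transcript levels do not record.

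Among these genes *Tfam* is the textbook target of NRF1 and of GABP, so the starts of all 10 genes were searched for the motifs of the factors of this pathway. The RefSeq windows (GRCm38.p6) ran from 250 bases before to 50 bases after each start, and both strands were read. The GABP motif CCGGAAGT, or its reverse complement, stood in the windows of 2 of the 10 genes, against 4.31% of all 27025 genes with such a window. The stretches that hold it are printed on the gene's strand, with the motif in capitals.

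*Tfam* (chr10:71238074-71238101, minus strand): ctgccgcggaCCGGAAGTccgggcttcc

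*Sirt3* (chr7:140882378-140882405, minus strand): gtgctcgctcACTTCCGGcaccgcgggc

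The *Tfam* motif lay at bases -47 to -40 from the RefSeq start, and the *Sirt3* motif lay at -86 to -79 in reverse complement. In the GENCODE annotation *Tfam* spans chr10:71225464-71238280, so there the printed site lies inside the gene. *Sirt3* spans chr7:140863666-140882309 there, so its printed site lies outside the gene. The opposite-strand gene *Psmd13* overlaps *Sirt3* in that annotation, and which gene the site belongs to was not tested. The palindromic NRF1 motif, the ERRα motif TCAAGGTCA and the CRE motif TGACGTCA stood in 0 of the 10 genes' windows, and in those of 5.19%, 0.466% and 2.03% of all genes. A match is a run of letters and was not tested for binding, and the absence of a match says only that these letters are not in the window.

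The reads recovered from the deposited values numbered 5435985 to 9049796 per library. Of 12 fibroblast markers, all but *Lum* and *Fap* were measured. These 10 had a median of 9.39 log2 CPM (counts scaled to library size, on the log2 scale). All 12 macrophage markers were measured too, at a median of 8.68, and took 1.83% of the reads against 1.45% for the fibroblast markers. The mean of the fibroblast markers was 9.18 to 9.27 in the thymol libraries and 9.28 to 9.34 in the controls (exact two-sided permutation test, p = 0.00216, the smallest it can give). That of the macrophage markers was 8.62 to 8.78 with thymol and 8.71 to 8.80 with DMSO (exact permutation p = 0.0173). Single markers lay on both sides of 0: 4 of the 10 fibroblast and 6 of the 12 macrophage markers had a log2 fold change above 0, with medians of -0.044 and -0.0069 and ranges of -0.54 to 0.33 and -0.78 to 0.18. In limma 2 markers of each list passed, all lower with thymol, where 1.57% of all genes were called lower: *Col1a1* and *Col3a1* for fibroblasts and *Cd14* and *Itgam* for macrophages. Of the other listed markers, 2 of 7 endothelial, 1 of 7 keratinocyte, 2 of 7 skeletal muscle, 1 of 5 adipocyte and 0 of 6 T cell genes were measured. The skeletal muscle mean rested on *Acta1* and *Des* alone, without *Myod1*, *Myog*, *Myf5*, *Pax7* and *Ckm*. It was 4.62 ± 0.39 with thymol and 5.07 ± 0.23 with DMSO (SD, exact permutation p = 0.0433). The adipocyte list rested on *Fabp4* alone, without *Adipoq*, *Plin1*, *Cidec* and *Lep*. *Fabp4* stood at 6.63 ± 0.12 and 6.38 ± 0.11 (exact permutation p = 0.0108). Lists reduced to so few genes cannot show that muscle or fat cells were present. The endothelial means were 1.81 and 1.82 and the keratinocyte means 2.48 and 2.75, with exact permutation p of 0.987 and 0.565. Fewer cells of a type and less RNA per cell cannot be told apart in such libraries, and the part of these marker transcripts in the results below was not tested. The levels below are those of whole libraries and cannot be assigned to fibroblasts or macrophages.

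The transcript levels of the 10 genes spanned more than 4 log2 units. *Prkag1* was the highest, at a mean of 119.6 CPM over the 12 libraries, followed by *Stk11* at 110.5 CPM. *Prkab2* stood at 50.1 CPM and *Prkaa1* at 41.8 CPM. The factors of mitochondrial biogenesis lay in the middle, with *Nrf1* at 28.6, *Tfam* at 22.3 and *Esrra* at 20.7 CPM. *Sirt1* at 14.4 and *Prkab1* at 14.3 CPM were close to the bottom, and *Sirt3* was the lowest at 6.32 CPM.

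Some neighbours in that order could not be separated. *Prkag1* exceeded *Stk11* in 8 of 12 libraries, *Tfam* exceeded *Esrra* in 7 of 12, and *Sirt1* exceeded *Prkab1* in 6 of 12. In each of these pairs the mean difference was smaller than its SD between libraries. *Prkab2* exceeded *Prkaa1* in 10 of 12, *Nrf1* exceeded *Tfam* in 11 of 12 and *Esrra* exceeded *Sirt1* in 11 of 12. Other steps held in every library: *Stk11* lay 1.15 ± 0.17 log2 units above *Prkab2*, *Prkaa1* lay 0.55 ± 0.32 above *Nrf1*, and *Prkab1* lay 1.18 ± 0.61 above *Sirt3* (SD, n = 12).

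**Figure D1:**
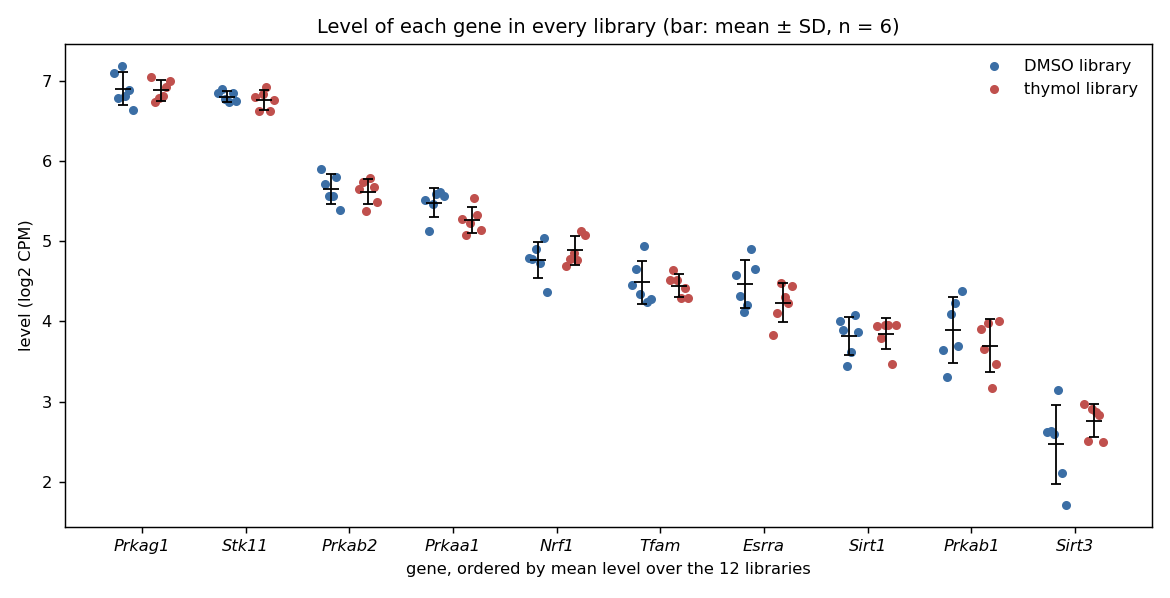
Level in log2 CPM (y axis) of the 10 energy-sensing genes (x axis, ordered by mean level) in each of the 6 DMSO and 6 thymol libraries, with mean ± SD as bars. The groups overlap for every gene, from *Prkag1* at 6.88 ± 0.13 with thymol and 6.90 ± 0.21 with DMSO down to *Sirt3* at 2.76 ± 0.21 and 2.47 ± 0.50.

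No difference in these genes was detectable after thymol. In limma 0 of the 10 passed an adjusted p-value of 0.05, against 2.22% of all genes (0.654% higher and 1.57% lower with thymol). Of the 10 genes 0 had an unadjusted p-value under 0.05, against 11.8% of all genes. With voom on the recovered reads 0 of the 10 passed as well. In the exact permutation test 0 of the 10 had an unadjusted p-value under 0.05, against 11.0% of all genes. The thymol values were fully separated from the DMSO values for 0 of the 10, against 1.68% of all genes. The list is short, so a count of 0 is not set apart from a background of 2.22%. Of the 10 log2 fold changes 7 were below 0, against 49.1% over all genes. Their median was -0.038 and their median size 0.0811, against 0.0026 and 0.098 over all genes. Below, each difference is a log2 fold change, thymol minus DMSO, given ± SE with the adjusted p of limma over all genes and 6 libraries a group, and fold ranges are its 95% interval.

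**Figure D2:**
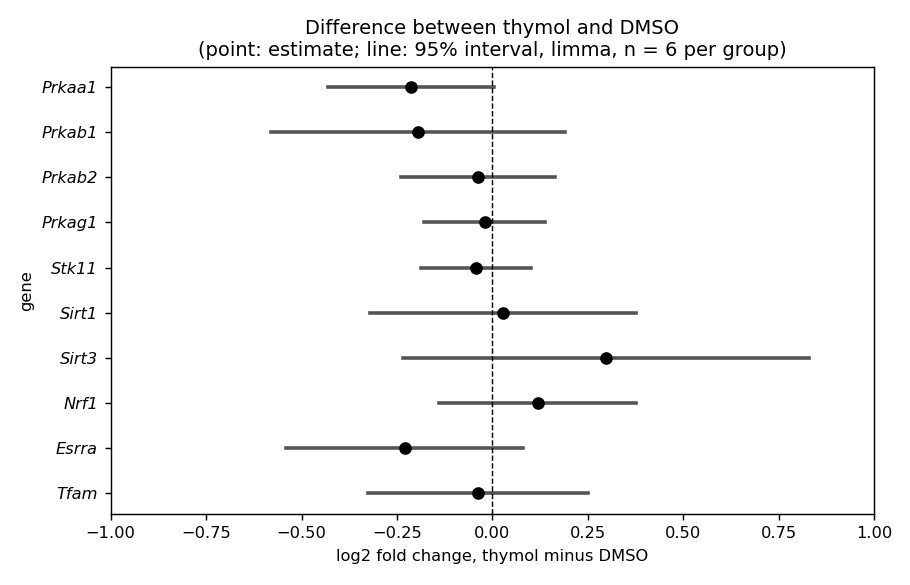
Log2 fold change, thymol minus DMSO (x axis), of each gene (y axis, by role), with its 95% interval from limma as a line. Every interval includes 0, the narrowest for *Stk11* (-0.19 to 0.10) and the widest for *Sirt3* (-0.23 to 0.83).

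*Prkaa1* encodes the α1 catalytic subunit of AMPK (chr15:5143861-5181899, plus strand). Its lowest, median and highest levels were 5.07, 5.26 and 5.55 log2 CPM in the thymol libraries and 5.13, 5.54 and 5.62 in the controls. The groups overlapped: 5 of the 6 thymol libraries lay below the control mean, while thymol replicate 4 reached the control median and DMSO replicate 2 lay far below the other controls. The difference was -0.21 ± 0.11 (adjusted p = 0.43), a fold of 0.862 with a 95% interval of 0.742 to 1.0. This was the smallest unadjusted p of the 10 genes (limma, p = 0.0527, rank 1309 of all genes), and the exact permutation test gave p = 0.0628. Without DMSO replicate 2 the log2 fold change was -0.28 (limma adjusted p = 0.227). *Prkaa2*, the gene of the α2 subunit, was looked for but is not among the genes in the deposited values.

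The β subunits carry the glycogen-binding module and hold the trimer together. *Prkab2* (β2, chr3:97658193-97673812, plus strand) was the more abundant transcript in 12 of 12 libraries, by 1.84 ± 0.50 log2 units (SD, n = 12). *Prkab1* (β1, chr5:116013586-116024508, minus strand) accounted for 21.3% ± 5.26 of the summed CPM of both genes in the thymol libraries and for 23.4% ± 7.01 in the controls (mean ± SD).

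*Prkab1* had a lowest, median and highest level of 3.17, 3.78 and 4.01 log2 CPM with thymol and of 3.31, 3.90 and 4.39 with DMSO. Thymol replicate 4 was the lowest of all 12 libraries, and the other thymol values lay within the range of the controls. The difference was -0.20 ± 0.19 (adjusted p = 0.788), with an interval from 0.669-fold to 1.14-fold. For *Prkab2* the same levels were 5.37, 5.66 and 5.79 with thymol and 5.39, 5.64 and 5.91 with DMSO. The groups nearly coincided, and the difference was -0.04 ± 0.10 (adjusted p = 0.952). The interval ran from 0.847-fold to 1.12-fold, narrower than that of *Prkab1*. Mean reads per library were 95.2 for *Prkab1* and 338.9 for *Prkab2*, and the cause of the wider interval was not tested.

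Within groups the β transcripts varied in opposite directions. Libraries with much *Prkab1*, such as DMSO replicate 6 (4.39 and 5.39 log2 CPM for *Prkab1* and *Prkab2*), had little *Prkab2*, and libraries with little *Prkab1*, such as thymol replicate 4 (3.17 and 5.79), had much. The deviations from the group means correlated at r = -0.80 (Spearman's rho = -0.82) over the 12 libraries, at -0.80 in the thymol libraries alone and at -0.80 in the controls alone. Among odd-numbered libraries r was -0.84 and among even-numbered ones -0.86. Without thymol replicate 4 and DMSO replicate 2, the libraries with the lowest *Prkab1*, it was -0.89. These subsets are parts of the same 12 libraries and add no separate support. The pair was the strongest of the 45 pairs of the 10 genes and was singled out after its value had been seen. The exact permutation test within groups gave p = 0.005 for r and p = 0.0038 for rho, and the adjusted values over the 45 pairs were 0.23 and 0.17, which missed the threshold. The median r of the 45 pairs was 0.027 and the highest 0.68.

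*Prkag1* encodes the γ1 subunit, which binds AMP, ADP and ATP (chr15:98812797-98831521, minus strand). The thymol libraries gave a lowest, median and highest level of 6.73, 6.87 and 7.05 log2 CPM, and the controls 6.64, 6.85 and 7.19. The thymol values lay wholly inside the range of the controls, and the difference was -0.02 ± 0.08 (adjusted p = 0.968; 0.883-fold to 1.1-fold). *Prkag2* (γ2), not among the 10 genes, was lower than *Prkag1* in 12 of 12 libraries by 0.77 ± 0.33 log2 units. It made up 36.3% ± 3.66 of the summed CPM of both in the thymol libraries and 38.0% ± 6.87 in the controls (mean ± SD), and its own difference was -0.12 ± 0.10 (adjusted p = 0.72).

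*Stk11* encodes LKB1, the kinase that phosphorylates the activation loop of AMPK and of its relatives (chr10:80115803-80130682, plus strand). From lowest over median to highest, its level was 6.62, 6.78 and 6.93 log2 CPM in thymol-treated cells and 6.73, 6.81 and 6.90 in controls. The thymol libraries spread to both sides of the controls, 1 above and 2 below every control. *Stk11* was the most precisely measured of the 10 genes, with a difference of -0.04 ± 0.07 (adjusted p = 0.904) and an interval of 0.878-fold to 1.07-fold.

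*Sirt1* encodes the nuclear deacetylase that acts on PGC-1α, p53 and FOXO proteins (chr10:63319005-63381704, minus strand). From lowest to median to highest, its levels were 3.47, 3.95 and 3.96 log2 CPM with thymol and 3.44, 3.88 and 4.08 with DMSO. In the thymol group 4 libraries lay within 3.95 to 3.96, replicate 2 lay at 3.79 and replicate 5 at 3.47. All thymol values were inside the range of the controls, and the difference was 0.03 ± 0.17 (adjusted p = 0.982; 0.8-fold to 1.3-fold).

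*Sirt3* encodes the main deacetylase of the mitochondrial matrix (chr7:140863666-140882309, minus strand). It had the fewest reads of the 10 genes, 21 to 62 per library. The lowest, median and highest levels were 2.49, 2.85 and 2.98 log2 CPM with thymol and 1.71, 2.61 and 3.15 with DMSO. All 6 thymol libraries lay above the control mean but inside the range of the controls, which was stretched by DMSO replicates 5 and 6 at its lower end and by replicate 4 at its upper end. The difference was 0.30 ± 0.26 (adjusted p = 0.753), and the interval of 0.85-fold to 1.78-fold was too wide to tell a rise from no change. *Sirt1* exceeded *Sirt3* in 12 of 12 libraries, by 1.22 ± 0.50 log2 units (SD, n = 12).

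*Nrf1* encodes nuclear respiratory factor 1, an activator of respiratory chain genes and of *Tfam* (chr6:30047988-30153458, plus strand). Its lowest, median and highest levels were 4.69, 4.82 and 5.13 log2 CPM with thymol and 4.37, 4.78 and 5.04 with DMSO. Thymol replicates 5 and 6 lay above every control, the others among them, and DMSO replicate 6 was the lowest library. The difference was 0.12 ± 0.13 (adjusted p = 0.813; 0.908-fold to 1.3-fold).

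*Esrra* encodes the orphan nuclear receptor ERRα (chr19:6910977-6921813, minus strand). Levels (lowest, median, highest) were 3.83, 4.27 and 4.48 log2 CPM with thymol and 4.12, 4.45 and 4.90 with DMSO. Of the thymol libraries 5 of 6 lay below the control mean and 2 below every control, and the rest overlapped with them. The difference of -0.23 ± 0.16 was the lowest of the 10 genes (adjusted p = 0.625), with an interval of 0.688-fold to 1.06-fold. The exact permutation test gave p = 0.177.

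*Tfam* (chr10:71225464-71238280, minus strand) had a lowest, median and highest level of 4.29, 4.47 and 4.64 log2 CPM with thymol and of 4.24, 4.40 and 4.94 with DMSO. The thymol values lay inside the range of the controls, in which replicate 4 was the highest. The difference was -0.04 ± 0.14 (adjusted p = 0.966; 0.798-fold to 1.19-fold). The estimates of *Tfam* and of *Sirt3*, the genes with the GABP letters printed above, had opposite signs, and both intervals included 0.

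The spread between libraries was wider than counting for all 10 genes. The SD within groups was 1.5 (*Sirt1*) to 3.37 (*Prkag1*) times the SD that counting reads alone would give, against a median of 2.19 over all genes. *Prkag1*, with 815.4 reads per library, and *Prkab2*, with 338.9, had almost the same SD of 0.17 log2 units, while *Stk11*, at 746.7 reads, had an SD of 0.10. For *Stk11* this was 1.83 times the counting spread.

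**Figure D3:**
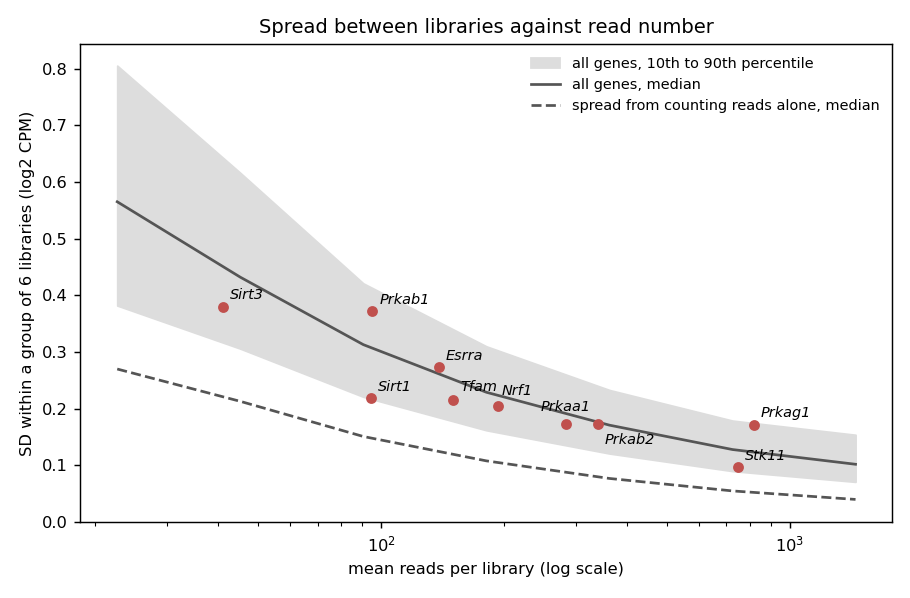
SD within a group of 6 libraries (y axis, log2 CPM) against mean reads per library (x axis, log scale) for the 10 genes (points), with the median and the 10th to 90th percentile of all genes as line and band and the counting spread as a dashed line. *Sirt1* sits nearest to counting alone (1.5 times) and *Prkag1* farthest from it (3.37 times).

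The annotation (GENCODE vM21 on GRCm38) places a gene of the opposite strand over the last coding exons of 7 of the 10 genes, and for 4 of these it is protein coding: *Gm17651* for *Prkab2*, *Cbarp* for *Stk11*, *Ric8a* for *Sirt3* and *Trmt112* for *Esrra*. Whether the authors counted by strand is not given in the sources used here, so reads from such partners cannot be told apart from those of the gene. *Sirt1*, *Tfam* and *Nrf1* had none.

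For 1 gene of each role the closest companions were sought by the correlation of deviations from the group means, over 12 libraries and the genes with a mean above 5 log2 CPM. *Prkaa1* was followed most closely by *Fgf10* (r = 0.90) and *Cyb5r3* (0.89), of 5393 genes compared. *Sirt1* was followed by *Tnrc18* (0.82) and *Dnajc3* (0.80), and *Esrra* by *Dnajc10* (0.80) and *Aopep* (0.80), of 5394 genes each. With so many genes and so few libraries such values are a description only.

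The signs of the small differences depended on the libraries. When odd- and even-numbered libraries were fitted apart, *Tfam* had a log2 fold change of 0.14 among the odd and -0.22 among the even, *Prkab2* of -0.19 and 0.12, *Prkag1* of -0.14 and 0.10, *Sirt1* of -0.05 and 0.11, and *Nrf1* of -0.02 and 0.26. *Prkaa1*, *Prkab1*, *Stk11* and *Esrra* stayed below 0 and *Sirt3* above 0 in both. The difference between odd and even libraries was not tested for these genes, and the labels give no batch.

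**Figure D4:**
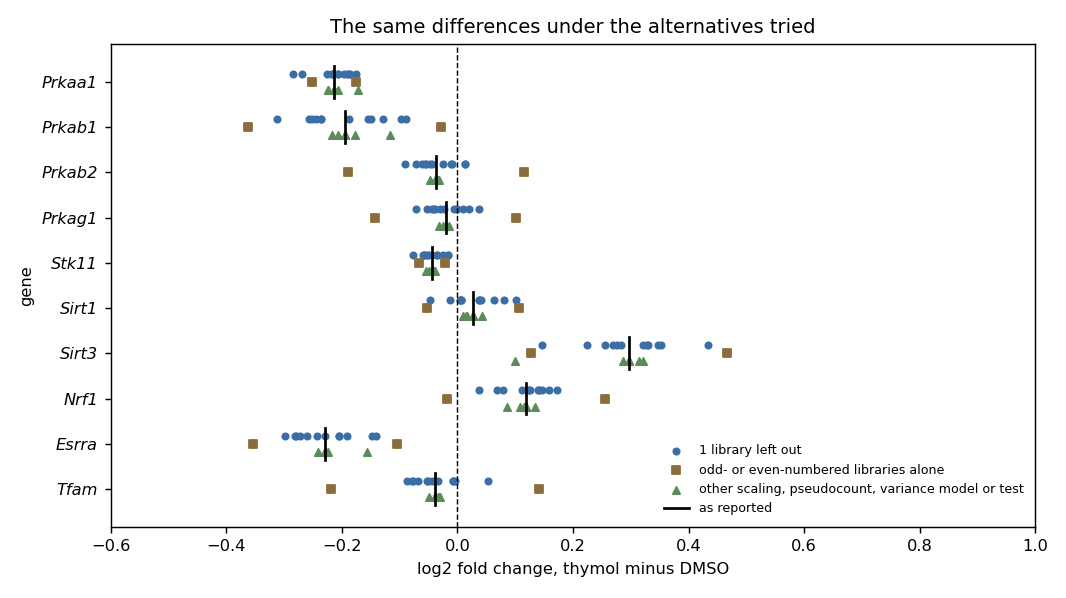
Log2 fold change, thymol minus DMSO (x axis), of each gene (y axis) as reported (black bar), with each library left out in turn, in odd- or even-numbered libraries alone, and under other scalings, pseudocounts, variance models or tests. *Prkaa1*, *Prkab1*, *Stk11* and *Esrra* stay below 0 and *Sirt3* above 0, while the other 5 genes have points on both sides.

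The genes around the 10 were read from 12 lists of kinases, substrates, coactivators and mitochondrial genes. Of 187 genes listed 156 were measured, and 3 passed in limma (1.92%, against 2.22% of all genes), 2 with voom. Of the 156, 15 had an unadjusted p-value under 0.05 (limma), against 11.8% of all genes. Among them were 1 AMPK-related kinase, 1 other sirtuin, 2 NAD genes, 1 gene of mitochondrial DNA maintenance, 1 of protein import and 3 mitochondrially encoded genes. The rest were among substrates, the folliculin complex and ERRα targets. The upstream kinases, the coactivators and the other AMPK subunits had 0. The median log2 fold change of the 156 was -0.011 with 85 genes below 0, against 0.0026 and 49.1% over all genes. The 3 genes that passed were *Txnip*, *Cpt1a* and *Fnip2*.

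Upstream of AMPK, 0 of 9 measured kinases, scaffolds and phosphatases passed, and their log2 fold changes ran from -0.16 to 0.11. The smallest p was that of *Cab39*, the MO25 scaffold that activates LKB1, at 0.11 ± 0.08 (adjusted p = 0.67). Of the AMPK-related kinases, most of which LKB1 also activates, 0 of 12 passed. *Sik1*, a salt-inducible kinase, had the smallest p: its levels were 1.99 to 3.11 log2 CPM with thymol and 2.74 to 3.47 with DMSO, a difference of -0.59 ± 0.24 (adjusted p = 0.27).

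Of 20 measured AMPK substrates 1 passed. *Txnip* encodes a brake on glucose uptake that AMPK marks for degradation. The lowest, median and highest levels were 7.19, 7.54 and 7.64 log2 CPM with thymol and 7.71, 7.79 and 8.02 with DMSO, so that every thymol library lay below every control. It fell by 0.35 ± 0.07 on the log2 scale (adjusted p = 0.00071), a fold of 0.783, and kept passing with each of the 12 libraries left out. It did not pass without the mean-variance trend (adjusted p = 0.118). In the exact permutation test it had the smallest p that 6 against 6 libraries can give, 0.00216, which 180 fully separated genes shared and which the adjustment over all genes turned into 0.129, so that test could not call any gene. The median of the 20 substrates was -0.068, and 12 of them were below 0, against 49.1% of all genes.

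The folliculin complex, of which 3 of 3 listed genes were measured, binds AMPK through FNIP1 and FNIP2. *Fnip2* had levels of 5.42 to 5.84 log2 CPM with thymol and 4.94 to 5.49 with DMSO, and 4 of 6 thymol libraries lay above every control. It rose by 0.37 ± 0.11 on the log2 scale (adjusted p = 0.048). The call was marginal: it was lost in 9 of the 12 fits that left out a library, and remained only when thymol 4, thymol 5 or DMSO 4 was dropped. In those 9 the adjusted p lay between 0.0524 (DMSO 3 dropped) and 0.167 (thymol 2 dropped). The call was also lost with voom (adjusted p = 0.0653) and with the libraries centred on their medians (adjusted p = 0.0554). *Fnip1* had a log2 fold change of 0.13 and *Flcn* of 0.01, and neither passed.

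**Figure D5:**
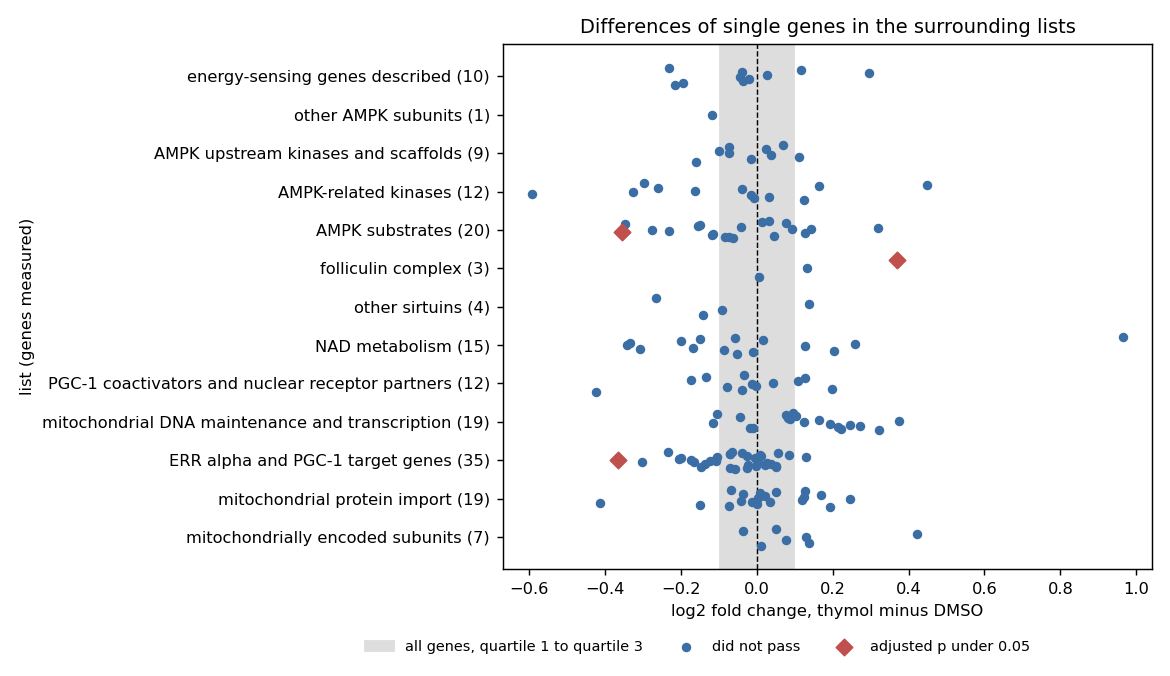
Log2 fold change, thymol minus DMSO (x axis), of every measured gene of the 10 and of 12 surrounding lists (y axis, number measured in brackets), with the middle 50% of all genes as a band. Diamonds mark the 3 genes with a limma adjusted p under 0.05, *Txnip* (-0.35), *Cpt1a* (-0.36) and *Fnip2* (0.37).

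Among the other sirtuins 0 of 4 measured genes passed. *Sirt7*, the nucleolar member, had the smallest p, with levels of 5.35 to 5.75 log2 CPM with thymol and 5.56 to 5.86 with DMSO and a difference of -0.26 ± 0.10 (adjusted p = 0.19). Of the NAD genes 0 of 15 passed, and 10 were below 0, against 49.1% of all genes. *Nnt*, the mitochondrial transhydrogenase, had the smallest p: it was low in every library, 2.23 to 3.17 log2 CPM with thymol and 1.06 to 2.60 with DMSO, and its difference was 0.96 ± 0.30 (adjusted p = 0.071).

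Of the coactivators and partners of PGC-1 0 of 12 passed. *Ppargc1a*, the gene of PGC-1α, was looked for but is not among the genes in the deposited values. *Yy1* had the smallest p at a difference of 0.13 ± 0.07 (adjusted p = 0.52). Of 35 measured targets of ERRα and PGC-1 only *Cpt1a* passed, the enzyme that admits long-chain fatty acids to mitochondria. Its lowest, median and highest levels were 5.50, 5.80 and 5.91 log2 CPM with thymol and 5.96, 6.05 and 6.31 with DMSO. Every thymol library lay below every control, and *Cpt1a* fell by 0.36 ± 0.09 on the log2 scale (adjusted p = 0.018). It lost the call in 4 of the 12 fits that left out a library: adjusted p = 0.0507 without thymol replicate 5, 0.0801 without thymol replicate 6, 0.0591 without DMSO replicate 5 and 0.0746 without DMSO replicate 6. It was also lost without the mean-variance trend (adjusted p = 0.128). As for *Txnip*, its exact permutation p was the smallest that test can give. The median of the 35 targets was -0.057, and 24 were below 0, against 49.1% of all genes.

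Among the genes that maintain and transcribe mitochondrial DNA, the partners of TFAM, 0 of 19 passed. Their median was 0.10, and 14 of them lay above 0, against 5441 of all 10697 genes. *Ssbp1*, the mitochondrial single-stranded DNA-binding protein, had the smallest p with levels of 4.57 to 5.03 log2 CPM with thymol and 4.39 to 4.74 with DMSO (log2 fold change 0.27 ± 0.13, adjusted p = 0.38). Mitochondrial protein import had 0 of 19 passing, and its smallest p was that of *Timm50* (log2 fold change 0.24 ± 0.12, adjusted p = 0.37).

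Of the genes that mitochondrial DNA itself encodes, which TFAM helps to transcribe, 0 of 7 measured passed. Their log2 fold changes ran from -0.04 to 0.42 with a median of 0.078. Above 0 were 6 of 7, against 5441 of all 10697 genes. An unadjusted p-value under 0.05 (limma) was found for 3 of 7, against 11.8% of all genes. *mt-Nd6*, a complex I subunit, had the smallest p at 0.42 ± 0.16 (adjusted p = 0.20). Its levels were 4.10 to 4.80 log2 CPM with thymol and 3.54 to 4.42 with DMSO, against a median level of 12.59 for the 7 genes. Without *mt-Nd6* the highest log2 fold change of the list was 0.14.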

How the data were processed

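The authors sequenced QuantSeq 3′ libraries of MAFs (12 in all), aligned the reads to GRCm38 with STAR 2.5.3, counted reads per gene with HTSeq 0.6.1, filtered out low and unannotated genes and applied TMM scaling. The deposited values are log2 CPM with a prior count, listed by gene symbol for 10697 genes. Their low values rise in steps of 1 read: 100% of those below 200 reads came within 0.02 of whole reads once a prior of 1.96 reads, at average library size, was taken off. That prior shrinks the differences of sparse genes. Reads are PCR products, and molecular identifiers are not described in the sources used here, so counting spreads cover counting error only.

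Groups came from the treatment labels. All genes were fitted with limma 3.58.1 in R 4.3.3 (lmFit, eBayes with a mean-variance trend, treatment alone). Two-sided p-values were corrected over the whole table (Benjamini-Hochberg, 0.05). Exact permutation tests ran over all 924 relabellings for single values, and over all 518400 orders within groups for the 45 gene pairs. The procedure was tested on simulated data.

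All 10 genes are named, with the genes that passed in each surrounding list or, where none did, the gene of smallest p, and for *Prkaa1*, *Sirt1* and *Esrra* the 2 genes of highest correlation. Genes outside this rule (*Fnip1*, *Flcn*, marker genes) were chosen after their values were seen. The 10 genes and the lists were chosen with earlier results of these data known. No libraries of a group agreed within counting noise (lowest chi-square per degree of freedom 4.18). Alternatives were the replicate block, library number, a pseudocount of 10 CPM, a filter on a mean log2 value above 4, no trend, other scalings, voom and each library left out. Protein sequences were not used here.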

Additional observations from a re-analysis of the deposited data

Results flagged for a closer look

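In 5 of 50 groups of 6 values examined, a library stood apart from the others by more than Dixon's 95% limit of 0.625, where chance gives about 1 in 20 groups, or 2.5 here. *Prkaa1* in DMSO replicate 2 was 5.13 log2 CPM, below the 5.46 to 5.62 of the other controls. *Sirt1* in thymol replicate 5 was 3.47, below 3.79 to 3.96 in the other thymol libraries. *Txnip* in thymol replicate 1 was 7.19, the lowest thymol value. The mean of the macrophage markers in thymol replicate 1 was 8.78, the highest of its group. Thymol replicate 5 had the most recovered reads of all libraries, 9049796.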

How the results depend on the processing

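Of the 10 genes 0 passed in the main fit or in any of 23 other settings. The lowest adjusted p was 0.227 (limma), for *Prkaa1* without DMSO replicate 2. An unadjusted p under 0.05 in at least 1 setting other than the exact test was found for 1 of the 10. Of 227 log2 fold changes under alternatives 214 kept their sign. Part of this count was fixed in advance. The replicate block, the odd or even term, the filter on low values, the fit without the trend and the exact permutation test leave the log2 fold change as it was. In even-numbered libraries alone *Prkab2* turned to 0.12 and *Prkag1* to 0.10. In odd-numbered libraries alone *Sirt1* turned to -0.052, *Tfam* to 0.14 and *Nrf1* to -0.019. With 1 library left out, *Prkab2* ranged from -0.091 to 0.013, *Prkag1* from -0.073 to 0.036, *Sirt1* from -0.048 to 0.10 and *Tfam* from -0.088 to 0.053. The cause was not tested.

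Over all genes 238 passed, and 172 to 270 with 1 library left out, 70 in odd-numbered and 167 in even-numbered libraries alone, and 57 without the trend. In the exact permutation test 0 passed and 1175 had an unadjusted p under 0.05. Its smallest p, 0.00216, became 0.129 after adjustment, so it could call no gene. Of the surrounding genes 3 passed, 1 to 3 with 1 library left out (1 without thymol replicate 6 or without DMSO replicate 5), 1 in odd-numbered and 4 in even-numbered libraries alone, and 0 without the trend and in the exact permutation test. The cause of the gap between odd- and even-numbered libraries was not tested. With the replicate block 332 genes passed over all, 4 of the surrounding genes and 0 of the 10. Deviations of same-numbered libraries correlated at -0.051 to 0.27 and not every library correlated best with its own number, so the numbers were not taken as a pairing. *Sirt3*, *Sirt1* and *Prkab1* were below the filter on low values, which kept 7 of the 10.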
